A study of Homo sapiens with 9 samples.

Results

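The 9 genes described here are interferon-stimulated genes, followed in KHM-5M cells, a thyroid cancer cell line, after treatment with YK-4-279. These were IFIT1, IFIT2, IFIT3, ISG15, MX1, OAS1, IFI6, IRF1 and IRF7, chosen by name, and all 9 were found once among the 58735 genes of the table. YK-4-279 is a small molecule inhibitor of ETS transcription factors, and DMSO is the solvent given to the control cells. Cells received DMSO or YK-4-279, at 0.3 μM or at 1 μM, for 24 h before RNA was sequenced from 3 samples in each of the 3 groups. All groups shared a single cell line, and the labels do not say whether the samples of a group were separate cultures. The study's methods speak of biological replicates, but of 2 per condition where the labels give 3, so that p-values measure the spread between these samples, which may be technical. The comparison of these genes with NF-kB targets addressed whether an interferon response went along with inflammatory gene expression.

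Interferons are secreted proteins that warn cells of infection. Type I interferons bind IFNAR1 and IFNAR2, the kinases JAK1 and TYK2 then pass the signal on, and a complex that holds STAT2 and IRF9 binds the interferon-stimulated response element (ISRE) in promoters. Interferon-gamma acts at another sequence, the gamma-activated site (GAS). NF-kB is a separate family of transcription factors, activated by cytokines such as TNF and IL-1 and by stress, with its own binding sequence. Some genes, IRF1 among them, are known to answer both interferon-gamma and NF-kB, and IFIT genes and ISG15 can also be switched on by interferon regulatory factors without secreted interferon.

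Libraries held 16903251 to 18238884 counts, and a count of 0 allows up to 3 counts, which is 0.164 to 0.177 CPM (the count scaled to library size). This limit covers counting error only. Among thyroid markers PAX8 was expressed, while TG, TSHR, SLC5A5 and NKX2-1 had at most 4, 2, 1 and 10 counts in any sample. The 7 thyroid markers summed to 167 to 178 CPM in DMSO, 168 to 208 CPM at 0.3 μM and 162 to 180 CPM at 1 μM. The 5 epithelial markers, carried by KRT8 and KRT18 and with at most 5 counts for CDH1, summed to 1762 to 1771, 1688 to 1824 and 1726 to 1850 CPM. The 7 immune cell markers summed to 1.23 to 2.25 CPM in DMSO, 0.866 to 2.50 CPM at 0.3 μM and 2.43 to 3.22 CPM at 1 μM, with 1 count in all for PTPRC and 1 for CD3E. Most of that sum at 1 μM was CD14, with 37, 30 and 34 counts against 21, 8 and 18 in DMSO. The part of these markers in the results below was not tested.

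Promoter sequence is shown first, for some members with ISRE matches and for IRF1, which has a GAS and an NF-kB sequence. MX1 had ISRE, GAS and NF-kB matches and OAS1 a GAS match only, and neither is printed. RefSeq promoter windows on GRCh38.p14, running from 250 bases before to 50 bases after each start site, were found for 7 of the 9 members, in 10 windows. IFIT2 and IRF7 were not matched. The letters searched on both strands were a pair of GAAA separated by any 2 bases for the ISRE, which reads as a pair of TTTC on the other strand, and TTCNNNGAA for the GAS. The NF-kB consensus was searched as well, and so was CCGGAAGT, a site of ETS factors. Capitals mark the matches in the stretches printed from 5′ to 3′ on the strand of the gene. Those of ISG15, IFIT3, IFIT1 and IFI6 hold ISRE letters only.
ISG15: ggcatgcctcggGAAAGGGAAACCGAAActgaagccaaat
IFIT3: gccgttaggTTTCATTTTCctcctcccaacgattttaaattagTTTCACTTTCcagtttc
IFIT1: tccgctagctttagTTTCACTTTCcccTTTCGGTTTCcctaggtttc
IFI6: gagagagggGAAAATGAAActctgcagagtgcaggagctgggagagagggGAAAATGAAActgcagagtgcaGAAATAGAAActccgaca
IRF1: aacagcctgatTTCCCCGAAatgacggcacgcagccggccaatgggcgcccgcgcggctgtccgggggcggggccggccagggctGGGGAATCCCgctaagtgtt

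The ISG15 stretch lies at chr1:1013372-1013411 on the plus strand, and the IFIT3 and IFIT1 stretches lie at chr10:89327832-89327891 and chr10:89392493-89392539 on the plus strand. The IFI6 stretch lies at chr1:27672268-27672357 and the IRF1 stretch at chr5:132490804-132490908, both on the minus strand. All 5 stretches end before the start site, and no annotated exon overlapped them. In ISG15 the pair of ISRE matches overlap, which makes 1 run of capitals. In IRF1 the first run of capitals is the GAS, at -124 to -116 from the start site, and the second is the NF-kB sequence, at -50 to -41, which fits the consensus on either strand and was counted once.

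ISRE letters stood in 7 of the 10 windows of the members and in 5 of the 7 matched genes, against 3.57% of 35116 windows of all genes. IRF1 and OAS1 were the matched members with none. The GAS letters stood in 3 of the 10 windows, in IRF1, OAS1 and MX1, against 7.66% of all windows. In 1 window of MX1 the GAS match overlapped an ISRE match. The NF-kB consensus stood in 3 of the 10 windows, in IRF1 and in 2 of the 3 windows of MX1, against 11.3% of all windows. The ETS letters stood in none of the 10 windows and in 4.14% of all windows. The windows of NF-kB genes showed the reverse pattern, with the NF-kB consensus in 21 of 45 and ISRE letters in 1 of 45. A match describes letters in a window and does not show that a factor binds there.

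Levels of the 9 genes were compared in FPKM, which divides counts by gene length and library size. In DMSO the order was led by ISG15, a ubiquitin-like protein that is joined to other proteins, at 20.4 ± 1.63 FPKM (SD, n = 3). This lay above 87.1% of the 16259 protein-coding genes with a value over 0. IFI6, a small membrane protein, followed at 7.66 ± 2.20 FPKM, and IRF7, a regulator of type I interferon genes, at 4.67 ± 0.93 FPKM. Samples of IFI6 and IRF7 overlapped, so that these neighbours were not told apart.

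The middle of the order in DMSO was IRF1 at 3.69 ± 0.23 FPKM and IFIT3 at 3.11 ± 0.48 FPKM, which overlapped, and then IFIT1 at 2.07 ± 0.17 FPKM. IFIT2 at 1.63 ± 0.30 FPKM and OAS1 at 1.37 ± 0.20 FPKM also overlapped. OAS1 lay above 37.7% of protein-coding genes, and MX1 was lowest at 0.594 ± 0.071 FPKM. Every member was thus measured in untreated cells, at low to middle levels apart from ISG15.

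At 0.3 μM the order of the members was the same as in DMSO, from ISG15 at 22.2 ± 3.26 FPKM to MX1 at 0.674 ± 0.200 FPKM. At 1 μM, IFIT3 at 5.20 ± 0.27 FPKM and IRF1 at 4.98 ± 0.48 FPKM stood above IRF7 at 3.67 ± 0.53 FPKM. IFIT2 at 2.74 ± 0.26 FPKM stood above IFIT1 at 2.29 ± 0.12 FPKM, with all 3 samples apart, whereas in DMSO it was the lower of the pair in all 3. The remaining members kept their places, with ISG15 at 25.5 ± 1.98, IFI6 at 9.68 ± 1.05, OAS1 at 1.68 ± 0.10 and MX1 at 0.731 ± 0.136 FPKM.

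**Figure D1:**
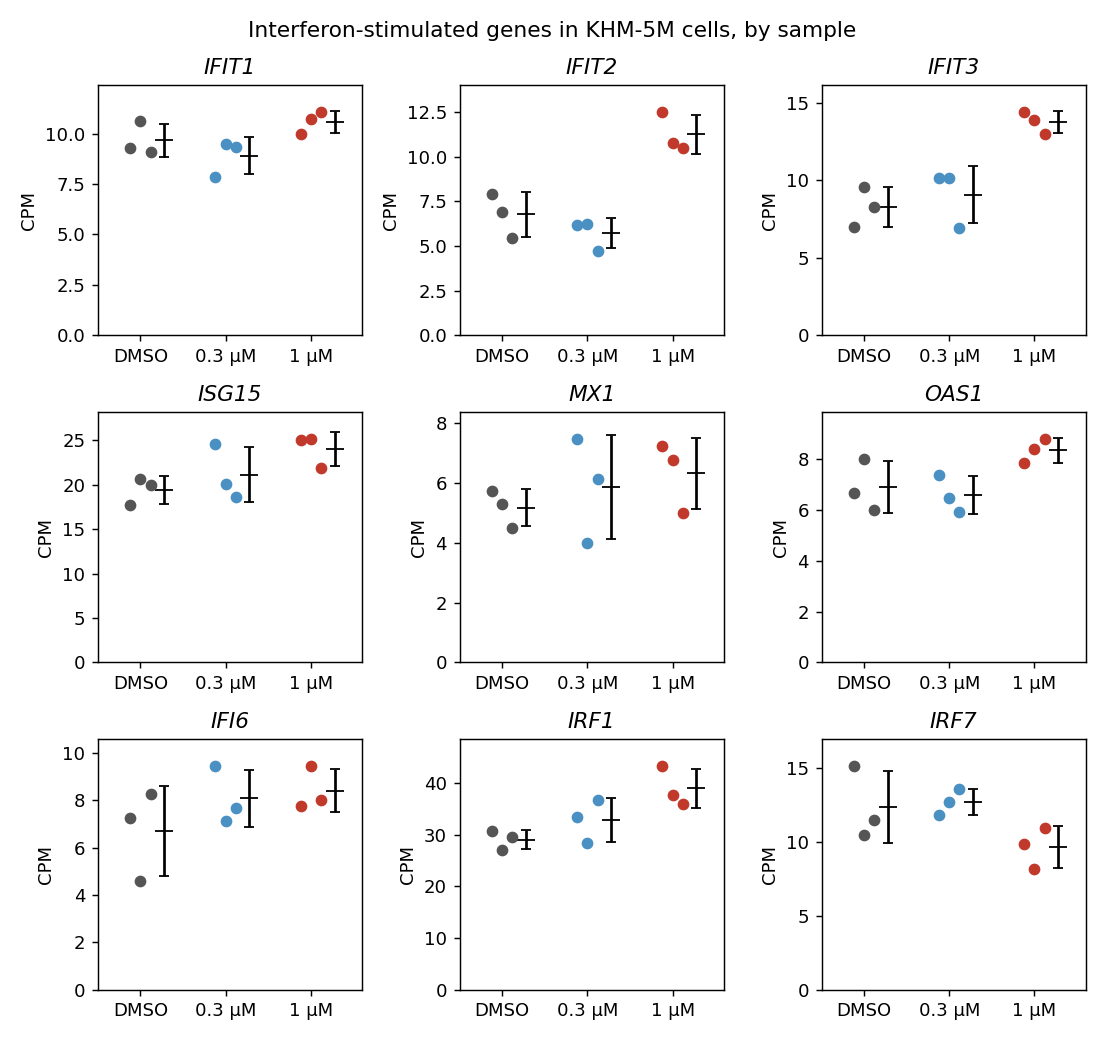
Level of each of the 9 interferon-stimulated genes, in CPM on the vertical axis, in each sample of DMSO, 0.3 μM and 1 μM YK-4-279. Points are samples and bars are the mean ± SD of 3 samples. IFIT2, IFIT3, ISG15 and IRF1 lie higher in all 3 samples at 1 μM than in all 3 DMSO samples, and the other 5 genes overlap between these groups.

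At 1 μM against DMSO, 4 of the 9 genes rose and none fell at an adjusted p under 0.05 (edgeR, quasi-likelihood test, adjusted by Benjamini-Hochberg over all genes tested). They were IFIT2, IFIT3, IRF1 and ISG15, with increases of 1.23-fold to 1.66-fold. IFIT1, OAS1, MX1, IFI6 and IRF7 did not pass. Among all 15617 genes tested, 17.6% passed, of which 7.67% of all were higher and 9.95% lower. The median log2 fold change was 0.30 over the members and -0.01 over all genes. In 4 of the 9 genes the groups did not overlap in CPM, against 36.6% of all genes. In bulk RNA a small rise in all cells and a larger one in some of them cannot be told apart.

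The IFIT proteins bind foreign RNA and block its translation, and their genes lie side by side on chromosome 10. IFIT2 (ENSG00000119922, chr10:89283694-89309276, plus strand, GRCh38) had 136, 124 and 92 counts in DMSO, 109, 112 and 82 at 0.3 μM and 229, 186 and 177 at 1 μM. The lowest sample at 1 μM was above the highest of the other 6. Its log2 fold change at 1 μM against DMSO was 0.73 ± 0.15 (SE), or 1.66-fold (adjusted p = 0.00438).

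IFIT3 (ENSG00000119917, chr10:89327894-89340971, plus strand) is known as the partner that stabilises IFIT1. It had 120, 172 and 140 counts in DMSO, 180, 182 and 120 at 0.3 μM and 264, 240 and 219 at 1 μM, again with each sample at 1 μM above the other 6. It rose 1.65-fold, a log2 fold change of 0.72 ± 0.13 (SE, adjusted p = 0.00180).

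IFIT1 (ENSG00000185745, chr10:89392546-89406486, plus strand), which recognises RNA without the host's cap methylation, had 159, 190 and 154 counts in DMSO, 139, 171 and 162 at 0.3 μM and 183, 185 and 187 at 1 μM. The highest of all 9 counts was in a DMSO sample. Scaled to library size, that sample was at 10.6 CPM, below replicates 2 and 3 of 1 μM at 10.7 and 11.1 CPM. Replicate 1 of 1 μM lay below it, so that DMSO and 1 μM overlapped. The log2 fold change was 0.12 ± 0.12 (SE, adjusted p = 0.514). IFIT1 and IFIT3 each carry a pair of ISRE matches in the stretches shown above, and IFIT3 passed the test while IFIT1 did not. Another window of IFIT3, which is not printed, held further ISRE matches at -94 to -85 and -51 to -42 from its start site.

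Whether IFIT2 and IFIT3 moved apart from IFIT1 was examined by the ratio of counts within each sample, a comparison chosen after the values were seen. IFIT2 over IFIT1 was 0.855, 0.653 and 0.597 in DMSO and 1.25, 1.01 and 0.947 at 1 μM. IFIT3 over IFIT1 was 0.755, 0.905 and 0.909 in DMSO and 1.44, 1.30 and 1.17 at 1 μM. Both ratios were higher at 1 μM in all 3 samples, and the two-sided exact permutation test gave p = 0.1 for each, the smallest value that 3 samples against 3 allow. Against 0.3 μM, where IFIT2 over IFIT1 was 0.784, 0.655 and 0.506, this ratio was again higher at 1 μM in all 3 samples (exact permutation test, p = 0.1). IFIT3 over IFIT1 was 1.29, 1.06 and 0.741 at 0.3 μM and overlapped the samples at 1 μM (exact permutation test, p = 0.2). The ratio of IRF7 to IRF1, computed in the same way, is given with those genes.

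All 3 IFIT genes overlap LIPA, a lysosomal lipase gene on the opposite strand, and whether the counts used strand is not given in the sources used here. By the methods the library kit was stranded, while the labels give an RNA kit with no mention of strand. LIPA had 1184, 1326 and 1285 counts in DMSO and 1699, 1367 and 1444 at 1 μM, a log2 fold change of 0.23 ± 0.07 (SE, adjusted p = 0.0358). IFIT2 also overlaps AL353751.1 on its own strand, which had 1 to 11 counts. The part of LIPA reads in the IFIT counts was not tested.

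ISG15 (ENSG00000187608, chr1:1001138-1014540, plus strand) had 303, 370 and 338 counts in DMSO, 435, 361 and 323 at 0.3 μM and 459, 435 and 369 at 1 μM. Scaled to library size these were 17.7 to 20.6 CPM in DMSO and 21.9 to 25.2 CPM at 1 μM, where the groups no longer overlapped. It rose 1.23-fold, with a log2 fold change of 0.30 ± 0.10 (SE, adjusted p = 0.0428). Of 11 other fits, 7 ended this call, and the adjusted p reached 0.137 without replicate 2 of 1 μM. The others that ended it were DESeq2, all 9 samples in the fit, the replicate block, and leaving out replicates 1 or 3 of DMSO or replicate 1 of 1 μM.

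OAS1 (ENSG00000089127, chr12:112906777-112933222, plus strand) makes the oligoadenylates that activate RNase L. It had 114, 143 and 101 counts in DMSO, 130, 116 and 102 at 0.3 μM and 143, 145 and 148 at 1 μM. The highest DMSO sample, at 7.98 CPM, was above only the lowest sample at 1 μM, where levels were 7.81, 8.39 and 8.77 CPM. The log2 fold change at 1 μM against DMSO was 0.27 ± 0.14 (SE, adjusted p = 0.221).

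MX1 (ENSG00000157601, chr21:41420304-41459214, plus strand), a dynamin-like GTPase that blocks viruses, had 98, 95 and 76 counts in DMSO, 132, 72 and 106 at 0.3 μM and 132, 117 and 84 at 1 μM. IFI6 (ENSG00000126709, chr1:27666061-27672218, minus strand) had 124, 82 and 140 counts in DMSO, 167, 128 and 133 at 0.3 μM and 142, 163 and 135 at 1 μM. Both genes overlapped between all pairs of groups. Log2 fold changes at 1 μM were 0.28 ± 0.18 (SE, adjusted p = 0.292) for MX1 and 0.32 ± 0.19 (SE, adjusted p = 0.261) for IFI6. These estimates were close to that of ISG15, with larger errors and fewer counts.

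The 2 interferon regulatory factors among the members had estimates of opposite sign. IRF1 (ENSG00000125347, chr5:132481609-132490798, minus strand), the factor induced by interferon-gamma and by NF-kB, had 525, 486 and 498 counts in DMSO, 592, 509 and 637 at 0.3 μM and 792, 650 and 607 at 1 μM. All samples at 1 μM were above DMSO. It rose 1.33-fold, a log2 fold change of 0.42 ± 0.09 (SE, adjusted p = 0.00525). C5orf56 overlaps IRF1 on the opposite strand and had 30 to 73 counts.

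IRF7 (ENSG00000185507, chr11:612553-615999, minus strand) had 260, 188 and 195 counts in DMSO, 209, 229 and 236 at 0.3 μM and 181, 141 and 185 at 1 μM. It was the only member with a negative estimate, a log2 fold change of -0.36 ± 0.15 (SE, adjusted p = 0.118). Without replicate 2 of DMSO the fall passed the test, at -0.47 (adjusted p = 0.0334). IRF7 over IRF1 was 0.495, 0.387 and 0.392 in DMSO and 0.229, 0.217 and 0.305 at 1 μM, lower in all 3 samples (exact permutation test, two-sided p = 0.1, the smallest possible). At 0.3 μM it was 0.353, 0.450 and 0.370, above all samples at 1 μM (exact permutation test, p = 0.1).

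At 0.3 μM against DMSO none of the 9 genes passed the test, with an adjusted p of 0.995 for each, and 0 of the 9 had an unadjusted p under 0.05. Of all 15762 genes tested, 0% passed in edgeR and 594 had an unadjusted p under 0.05. DESeq2 called 1 of 32386 genes, and edgeR without the filter on low counts called 30 of 32387, with no member among these calls. Among the 9 genes the largest estimate was that of IFI6, at 0.27 ± 0.19 (SE), and the lowest that of IFIT2, at -0.25 ± 0.18 (SE). The groups overlapped in all 9 genes, against 8.37% of all genes without overlap. The median over the members was 0.12.

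At 1 μM against 0.3 μM, IFIT2 and IFIT3 were higher and no member was lower, where 12.6% of 15583 genes passed. The log2 fold change of IFIT2 was 0.98 ± 0.15 (SE), or 1.98-fold (adjusted p = 0.000400), and that of IFIT3 was 0.61 ± 0.14 (SE), or 1.52-fold (adjusted p = 0.00983). IRF1 at 0.25 ± 0.10 (SE, adjusted p = 0.107) and ISG15 at 0.19 ± 0.11 (SE, adjusted p = 0.267) did not pass. IRF7 was at -0.39 ± 0.13 (SE, adjusted p = 0.0583).

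Groups did not overlap between the doses in 5 of the 9 genes, IFIT1, IFIT2, IFIT3, OAS1 and IRF7, against 31.5% of all genes. IFIT1 had an estimate of 0.26 ± 0.13 (SE, adjusted p = 0.207) and OAS1 of 0.35 ± 0.14 (SE, adjusted p = 0.122). MX1 and IFI6 had estimates of 0.12 ± 0.21 and 0.06 ± 0.15 (SE). The comparisons of 1 μM with DMSO and with 0.3 μM share the 1 μM samples.

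**Figure D2:**
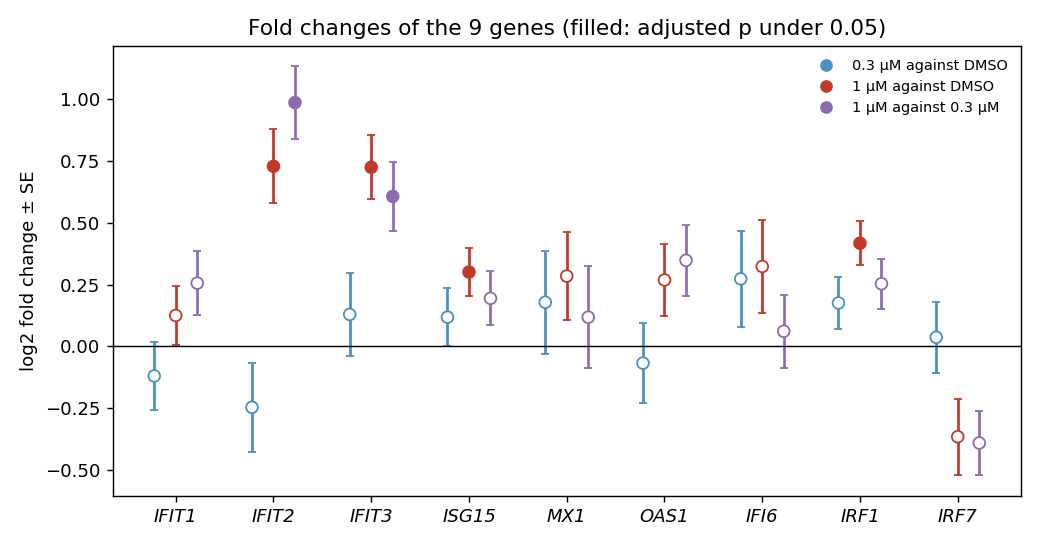
Log2 fold change with its standard error (vertical axis) of each of the 9 genes (horizontal axis), for each dose against DMSO and for the higher dose against the lower. Filled points passed edgeR at an adjusted p under 0.05. IFIT2, IFIT3, IRF1 and ISG15 are filled for 1 μM against DMSO, IFIT2 and IFIT3 for 1 μM against 0.3 μM, and none for 0.3 μM against DMSO.

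The genes most like each rising member were sought over the 9 samples among 14172 genes with a mean of at least 1 CPM. The measure was the root mean square difference in log2 CPM relative to the DMSO mean. Those nearest IRF1 were TNIP1 (0.0616), NFKBIA (0.0627) and VEGFA (0.0738). TNIP1 and NFKBIA are feedback inhibitors of NF-kB and belong to the NF-kB list used below. Those nearest ISG15 were CASP6 (0.0575), CASP4 (0.0666) and DEPP1 (0.0726), the first pair being caspases. IFIT3 was nearest to KCNQ3 (0.117), TRAK2 (0.124) and BBS12 (0.128). IFIT2 was nearest to SERPINB8 (0.177), CCNYL1 (0.197) and ADAM12 (0.199). No other member was among the 3 nearest genes of any of them.

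The pathway around these genes was read from 143 other genes in 8 lists, of which 110 were tested at 1 μM against DMSO. Of these 17 rose and 3 fell, that is 18.2% against the 17.6% of all genes. The share that rose was 15.5%, against 7.67% of all genes. Their median log2 fold change was 0.15. Without replicate 3 of DMSO, 12 of 112 tested passed, of which 9 were higher. In that fit 1683 of all 16006 genes passed, against 2752 of 15617 in the main fit. Of the 20 calls, 11 held in all 11 other fits. At 0.3 μM against DMSO, 0 of the 110 passed in edgeR. An unadjusted p under 0.05 was found in 5 of the 110, against 594 of all 15762 genes.

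Interferon ligands were close to absent. Of 21 ligand genes, 16 had 0 counts in all 9 samples, and the list summed to 26 counts over all samples, so that none could be tested. IFNB1, the interferon-beta gene, had 0, 0 and 0 counts in DMSO, 0, 0 and 1 at 0.3 μM and 3, 0 and 0 at 1 μM. The highest ligand count was 6, for IFNE. No ligand mRNA was therefore detectable beyond a few reads at this depth at 24 h.

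Of the 6 receptor genes, IFNAR1 rose and 5 did not pass, so that 16.7% passed, against 17.6% of all genes. IFNAR1 had 451, 474 and 445 counts in DMSO, 465, 473 and 405 at 0.3 μM and 728, 625 and 582 at 1 μM. It rose by a log2 fold change of 0.48 ± 0.08 (SE, adjusted p = 0.00121) against DMSO and was also higher than at 0.3 μM (adjusted p = 0.000877). The call against DMSO held in all 11 other fits.

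Downstream of the receptors, 2 of 6 genes fell and none rose, where 9.95% of all genes fell and 7.67% rose. STAT2 fell by 0.33 ± 0.07 on the log2 scale (SE, adjusted p = 0.00489), from 1554, 1826 and 1529 counts to 1458, 1228 and 1282. TYK2 fell by 0.28 ± 0.06 (SE, adjusted p = 0.00744), from 1681, 1632 and 1499 counts to 1421, 1335 and 1271. Both calls held in all 11 other fits.

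JAK1 was at 0.14 ± 0.06 (SE, adjusted p = 0.117). IRF9, with 27 to 57 counts per sample, was at -0.34 ± 0.29 (SE, adjusted p = 0.461). Of the mRNAs of STAT2 and IRF9, which act together at the ISRE, that of STAT2 was thus lower at 1 μM, and that of IRF9 did not pass the test.

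Among 8 negative regulators, SOCS1 and PTPN11 rose, that is 25%, against 7.67% of all genes. SOCS1, an inhibitor of JAK kinases, had 27, 20 and 19 counts in DMSO and 47, 42 and 47 at 1 μM, a log2 fold change of 1.02 ± 0.27 (SE, adjusted p = 0.0168). The call was lost without replicate 3 of DMSO (adjusted p = 0.0677) and without replicate 3 of 1 μM. PTPN11, a phosphatase with many roles, rose by 0.18 ± 0.05 (SE, adjusted p = 0.0298), a call lost in 5 of 11 other fits.

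Of 12 genes that sense nucleic acids or pass on that signal, 11 were tested, 4 rose and none fell. The share that rose was 36.4%, against 7.67% of all genes. IKBKE, a kinase upstream of IRF3 and NF-kB, rose by 0.43 ± 0.10 (SE, adjusted p = 0.00788), a call that held in all 11 other fits. DDX58, which encodes the RNA sensor RIG-I, rose by 0.51 ± 0.13 (SE, adjusted p = 0.0125), and TLR3, a receptor for double-stranded RNA, by 0.92 ± 0.28 (SE, adjusted p = 0.0387). TICAM1, the adaptor of TLR3, rose by 0.32 ± 0.10 (SE, adjusted p = 0.0421) although its groups overlapped in CPM. The calls of DDX58, TLR3 and TICAM1 were lost in 2, 5 and 5 of the 11 other fits, with adjusted p up to 0.0632, 0.134 and 0.151. Of the 5 other interferon regulatory factors, 3 were tested and none passed, where 17.6% of all genes passed.

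The 55 other type I interferon-stimulated genes give the wider view of the response. Of the 51 tested, 7 rose, none fell and 44 did not pass, so that 13.7% passed, against 17.6% of all genes. The share that rose was likewise 13.7%, against 7.67% of all genes. The median log2 fold change was 0.16, and 43 of the 51 estimates were positive. Groups did not overlap in 18 of the 51, where 36.6% of all genes did not overlap. The genes that rose were OASL, OAS2, ZC3HAV1, ISG20, IFI27, HELZ2 and IFI16.

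ZC3HAV1, a zinc finger protein that binds viral RNA, had 649, 684 and 654 counts in DMSO and 1049, 963 and 940 at 1 μM, with a log2 fold change of 0.55 ± 0.07 (SE, adjusted p = 0.000105). IFI27 rose by 0.43 ± 0.09 (SE, adjusted p = 0.00539) and HELZ2 by 0.37 ± 0.08 (SE, adjusted p = 0.00730). These 3 calls and that of IFI16 held in all 11 other fits. OASL, at 0.66 ± 0.20 (SE, adjusted p = 0.0324), OAS2, at 0.61 ± 0.15 (SE, adjusted p = 0.0154), and ISG20, at 0.45 ± 0.13 (SE, adjusted p = 0.0278), lost their calls in 6, 1 and 5 of these fits.

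Of 30 genes of the interferon-gamma response and antigen presentation, 25 were tested, 3 rose and 1 fell, so that 16% passed, against 17.6% of all genes. The share that rose was 12%, against 7.67% of all genes. ICAM1, an adhesion molecule that NF-kB also induces, had the largest increase, 0.66 ± 0.07 (SE, adjusted p = 4.06e-05), from 1016, 1072 and 948 counts to 1804, 1648 and 1425. TAP1, a peptide transporter, rose by 0.34 ± 0.07 (SE, adjusted p = 0.00560). HLA-B rose by 0.21 ± 0.06 (SE, adjusted p = 0.0270), a call lost in 4 of 11 other fits, and its reads may be shared with other HLA genes.

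CD274, which encodes PD-L1 and is induced by interferon-gamma, fell by 0.48 ± 0.10 on the log2 scale (SE, adjusted p = 0.00406), from 362, 454 and 366 counts to 288, 281 and 286. The calls of ICAM1, TAP1 and CD274 held in all 11 other fits. The chemokine genes that report interferon-gamma were near 0, with no counts for CXCL9 and with 11, 1 and 8 counts for CXCL10 in DMSO against 16, 6 and 0 at 1 μM. The median log2 fold change of the 25 genes was 0.18.

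**Figure D3:**
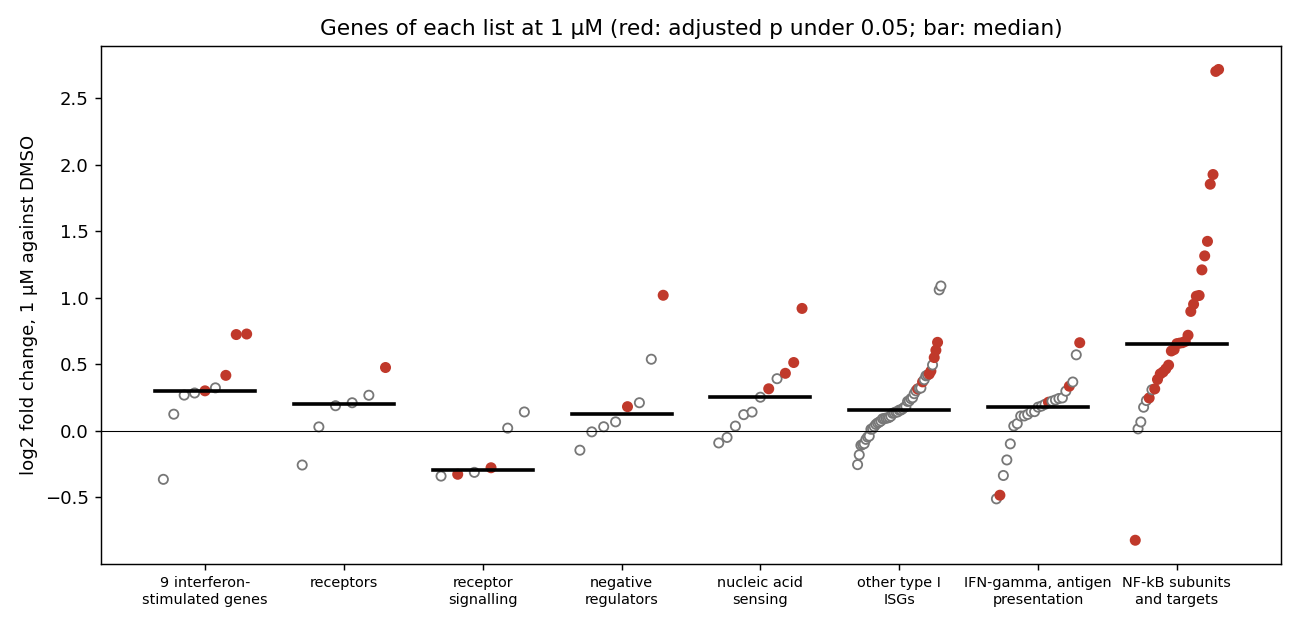
Log2 fold change at 1 μM against DMSO (vertical axis) of each tested gene in the 9 interferon-stimulated genes, 6 of the interferon pathway lists and the NF-kB list (horizontal axis), sorted by value within a list. Red points passed edgeR at an adjusted p under 0.05, and the bar is the median of the list. The NF-kB list lies highest, with a median of 0.66, against 0.30 for the 9 interferon-stimulated genes and 0.16 for the other type I interferon-stimulated genes.

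NF-kB genes were used for comparison, from a list of 32 subunits, inhibitors and targets. Of the 31 tested, 25 rose, 1 fell and 5 did not pass, so that 83.9% passed, against 17.6% of all genes. The median log2 fold change was 0.66. Groups did not overlap in 27 of the 31, against 36.6% of all genes. The largest increases were those of CCL20 at 2.72 ± 0.32, PTGS2 at 2.70 ± 0.36, IL6 at 1.93 ± 0.23, IL1B at 1.85 ± 0.13, IL1A at 1.42 ± 0.16 and CXCL8 at 1.31 ± 0.12 (SE). NFKBIA, which is nearest in pattern to IRF1 with TNIP1, rose by 0.47 ± 0.06 (SE, adjusted p = 0.000210). LTB was the gene that fell (adjusted p = 0.0494), and its call was lost in 10 of 11 other fits. The list was chosen with results of these samples known, and no test of the difference between the lists was made.

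At 0.3 μM against DMSO, 0 of the 31 NF-kB genes passed in edgeR. An unadjusted p under 0.05 was found in 10 of the 31, against 594 of all 15762 genes. The median of the list was 0.16 with 30 of 31 estimates positive, and the median over all genes was 0.000893. At 1 μM against 0.3 μM, 18 of the 31 rose, against 911 of all 15583 genes. Relative to the DMSO mean, the median log2 level of the NF-kB list was 0.03 to 0.23 in the samples at 0.3 μM and 0.52 to 0.76 at 1 μM. For the 9 interferon-stimulated genes it was -0.04 to 0.20 at 0.3 μM and 0.30 to 0.37 at 1 μM. For the other type I interferon-stimulated genes it was 0.11 to 0.20 at 1 μM, and for the interferon-gamma list 0.12 to 0.18.

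**Figure D4:**
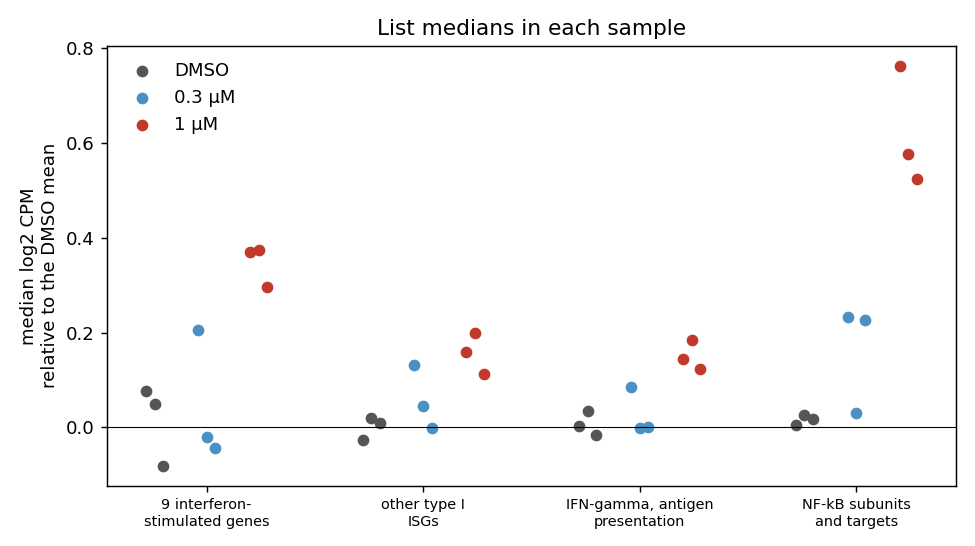
Median log2 CPM of the genes of each of 4 lists, relative to the mean of the DMSO samples (vertical axis), in each of the 9 samples. Points are samples. The 3 samples at 1 μM lie at 0.30 to 0.37 for the 9 interferon-stimulated genes and at 0.52 to 0.76 for the NF-kB genes.

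The promoter letters of the other lists complete the comparison. ISRE letters stood in 32 of 60 windows of the other type I interferon-stimulated genes and in 15 of 23 windows of the interferon-gamma list, and the NF-kB consensus in 7 of 60 and 9 of 23. In the members, ISRE letters were thus found both in genes that rose, ISG15 and IFIT3, and in genes that did not pass, IFIT1, IFI6 and MX1. IRF1 rose with no ISRE letters in its window.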

How the data were processed

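Reads freed of adaptors and low quality were aligned to GRCh38 by the authors. The paper names Hisat2 and HTseq, and the submitters' processing notes name HISAT2 2.0.5 and featureCounts 1.5.0-p3, so that the counting tool differs between sources. The deposited counts are whole reads per gene and sample, not normalized. The FPKM values deposited by the authors divide counts by gene length and library size. They served for levels only. The 10 columns of the authors' own comparisons (group means, log2 fold changes and p-values) were not used. The methods name 2 biological replicates per condition and the labels 3, and all 3 were used.

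Counts were tested with edgeR 4.0.16 in R 4.3.3 (filterByExpr, minimum count 10, TMM, glmQLFit, glmQLFTest, 2 groups per fit), adjusted by Benjamini-Hochberg over all genes tested. Standard errors are the absolute log2 fold change divided by the square root of F. A gene was called at an adjusted p under 0.05. Levels in log2 CPM used a prior count of 2. Within groups samples differed by more than sampling noise (chi-square 3.2 to 10.7 times its degrees of freedom). Alternatives were DESeq2 1.42.0, RLE size factors, no filter, all 9 samples, a replicate block, each sample left out and a 1.5-fold cutoff. The steps were tested on simulated data. Tables used Python 3.11.15, pandas 2.3.3 and scipy 1.17.1.

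All 9 members are named, with JAK1, TYK2, STAT2, IRF9 and IFNB1. In other lists the called genes at 1 μM are named, with values for up to 6 of the largest change and a mean of at least 1 CPM. Genes of these lists that are not named are not reported here singly. Other genes named were chosen after their values were seen. The members and lists were chosen with earlier results of these data known.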

Additional observations from a re-analysis of the deposited data

How the results depend on the processing

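IFIT2, IFIT3 and IRF1 passed the test at 1 μM against DMSO in all 11 other fits, as IFIT2 and IFIT3 did between the doses. With a 1.5-fold cutoff the calls at 1 μM against DMSO fell from 4 to 2 among the members (IFIT2 and IFIT3). Pathway calls fell from 20 to 5, NF-kB calls from 26 to 19 and calls over all genes from 2752 to 861. Without a filter on low counts the pathway calls were 31 of 124 tested, and those over all genes 3135 of 32131. Leaving out each sample gave 3 to 5 members at 1 μM against DMSO (IRF7 was the fifth, without DMSO replicate 2), 0 to 0 at 0.3 μM and 2 to 3 between the doses (IRF1 at 0.34 without replicate 3 of 0.3 μM). At 1 μM against DMSO it gave 12 to 25 pathway genes, 23 to 26 NF-kB genes and 1683 to 2977 of all genes. Over all genes it gave 0 to 4 at 0.3 μM against DMSO and 948 to 1884 between the doses. At 1 μM against DMSO, DESeq2 called 3 members, 18 pathway genes, 24 NF-kB genes and 2304 of all 15449 genes tested.

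Uncalled estimates changed sign when a sample was left out. At 0.3 μM against DMSO they ranged from -0.00468 to 0.20 for ISG15, -0.0324 to 0.39 for MX1, -0.16 to 0.0571 for OAS1 and -0.0691 to 0.21 for IRF7. Between the doses they ranged from -0.0947 to 0.33 for MX1 and from -0.0273 to 0.19 for IFI6. The cause was not tested.

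Deviations of same-numbered samples were at most weakly correlated (-0.02 to 0.08), and these values do not settle whether the numbers pair the samples. With the replicate number as a block, 3, 0 and 2 members passed in the 3 comparisons, and 2120, 1 and 1768 of all genes. At 1 μM against DMSO, 16 pathway and 25 NF-kB genes passed with the block. At 0.3 μM against DMSO every sample correlated best with its own number, and in the other comparisons this did not hold. The members had 72 to 792 counts per sample, and the smallest rise called was 1.23-fold.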
